A study of Mus musculus with 6 samples.

Results

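The oligoadenylate synthetases are a family of interferon-stimulated proteins, described here in 6 mouse melanomas grown from B16 cells. The 8 genes Oas1a, Oas1b, Oas1c, Oas1g, Oas2, Oas3, Oasl1 and Oasl2 were taken by symbol from the 55536 genes counted in every tumor. The family was chosen from results of these same tumors, so its values in the comparison of the groups are a description and carry no test. All 8 genes passed the filter on low counts, as did 15696 genes in all.

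ATM KO tumors (n = 3) grew from B16 cells with a knockout of ATM, a kinase of the response to broken DNA. Vector control tumors (n = 3) grew from B16 cells carrying the vector. B16 is a melanoma line of the C57BL/6 strain. Per the labels, 100000 cells were placed under the skin of C57BL/6J mice and whole tumors were taken on day 13, so each RNA sample mixes tumor cells with cells of a host for which no change to Atm is given. The labels do not say how ATM was disrupted, whether the KO cells were a clone or a pool, or whether each tumor had its own mouse. Genotype therefore cannot be told apart from the cell line that carries it, and the p-values below measure only the spread between these tumors, which may be technical. The series title links ATM to leakage of mitochondrial DNA and to cGAS and STING, a pathway that leads to interferon, and the family is a readout of interferon.

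Libraries held 22101124 to 29037715 counts on genes. Atm had 97.2, 132 and 107 CPM in ATM KO tumors 1, 2 and 3, against 110.9, 107 and 95.5 CPM in vector control tumors 1, 2 and 3 (CPM, counts scaled by TMM library size). The groups overlapped (log2 fold change 0.10 ± 0.13 SE, edgeR adjusted p = 0.707), and a count over the whole gene does not check a disruption at an unknown site. The 8 melanoma markers summed to 19895 to 20123 CPM in ATM KO tumors and 19606 to 28160 CPM in vector control tumors. Among them Dct, an enzyme of melanin synthesis, fell to 5079 ± 64.3 CPM in ATM KO tumors, against 8521 ± 1703 CPM in vector control tumors (SD, n = 3 each; edgeR adjusted p = 0.0434), and the other 7 did not pass the test.

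Oligoadenylate synthetases bind double-stranded RNA and then link ATP into short chains through 2'-5' bonds. The chains switch on the cutting of cellular and viral RNA, which limits virus growth. Interferon raises transcription of the family through ISGF3, a complex that holds IRF9 and binds promoters of interferon-stimulated genes. Mouse Oas1a, Oas1g, Oas2 and Oas3 encode active synthetases. Oas1b is known for resistance to flaviviruses, and laboratory strains such as C57BL/6 carry a truncating allele. Mouse Oasl1 and Oasl2 carry ubiquitin-like domains beside a synthetase-like fold, and OASL1 is known in the mouse to hold back translation of IRF7.

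The promoter windows of 4 Oas genes are shown because they hold the interferon-response motif of the family. The windows run from 250 bases before to 50 bases after the transcription start in RefSeq (GRCm38.p6), and 6 of the 8 genes had one there. All 4 lie on the minus strand of chromosome 5, at chr5:120907476-120907775 for Oas1a, chr5:120887564-120887863 for Oas1g, chr5:120812465-120812764 for Oas1c and chr5:120777610-120777909 for Oas3. Capitals mark matches of GAAANNGAAA on either strand, a form of the element that ISGF3 binds.
Oas1a: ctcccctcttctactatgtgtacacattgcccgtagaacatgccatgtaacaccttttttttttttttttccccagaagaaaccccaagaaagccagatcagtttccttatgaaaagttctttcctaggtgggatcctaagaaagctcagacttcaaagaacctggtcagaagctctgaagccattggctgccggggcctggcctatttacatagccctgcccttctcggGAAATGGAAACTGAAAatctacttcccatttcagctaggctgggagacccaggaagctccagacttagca
Oas1g: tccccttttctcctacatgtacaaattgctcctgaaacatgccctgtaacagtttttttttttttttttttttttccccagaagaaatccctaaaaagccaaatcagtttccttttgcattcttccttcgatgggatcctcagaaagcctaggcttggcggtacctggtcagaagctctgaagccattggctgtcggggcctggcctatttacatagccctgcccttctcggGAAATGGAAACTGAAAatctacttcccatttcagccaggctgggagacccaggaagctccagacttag
Oas1c: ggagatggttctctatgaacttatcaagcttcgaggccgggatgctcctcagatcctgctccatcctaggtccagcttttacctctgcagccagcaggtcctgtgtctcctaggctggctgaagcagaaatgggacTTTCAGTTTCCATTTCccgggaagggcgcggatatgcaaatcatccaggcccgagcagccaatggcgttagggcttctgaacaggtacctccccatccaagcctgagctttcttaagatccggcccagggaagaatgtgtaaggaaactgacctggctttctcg
Oas3: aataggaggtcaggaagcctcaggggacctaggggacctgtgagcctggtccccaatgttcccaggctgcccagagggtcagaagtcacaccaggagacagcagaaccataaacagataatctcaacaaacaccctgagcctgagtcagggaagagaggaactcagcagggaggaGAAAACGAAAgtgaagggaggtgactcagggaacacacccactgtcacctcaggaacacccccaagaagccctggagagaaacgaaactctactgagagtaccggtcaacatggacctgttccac

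Oas1a, Oas1g and Oas1c each held 2 overlapping matches, which together form the same 16 bases, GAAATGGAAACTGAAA. Oas3 held 1 match, GAAAACGAAA, which began 75 bases before its start. Among 32851 windows of the same length, 3.44% held a match and 0.225% held at least 2. The stretch of 16 bases began 20 bases before the start of Oas1a and 18 bases before that of Oas1g. In the window of Oas1c it began 114 bases before the start and reads TTTCAGTTTCCATTTC on that strand. Oas1b runs away from Oas1c, from a start 121 bases off, so the same bases at 120812613 to 120812628 of chromosome 5 read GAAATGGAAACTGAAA in the direction of Oas1b and begin 22 bases before its annotated start. Of all windows, 7 held the whole stretch, and they belong to 5 genes, Oas1a, Oas1g, Oas1c, Apol9a and Apol9b. A gene can thus have more than 1 window, and the shares given here are of windows, not of genes. The related motif GAAANGAAA matched in Oas3 (GAAACGAAA) and in 3.17% of all windows. The palindromic motif TTCNNNGAA, another element of cytokine-responsive promoters, matched in Oas1a (TTCAAAGAA) and in 8.30% of all windows. The windows of Oasl1 and Oasl2 held none of these letters, which says nothing of elements outside the window or of other spelling.

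The family lies at a pair of sites on chromosome 5 (GRCm38). Oasl2 (114896936 to 114912234) and Oasl1 (114923240 to 114937915) are neighbours on the plus strand. The Oas cluster spans 120730333 to 120921652, 5.79 Mb away, and holds 10 genes. Along it lie Oas2 (120730333 to 120749853), Oas3 (120753098 to 120777661), Oas1c (120800194 to 120812514), Oas1b (120812635 to 120824163), Oas1g (120876142 to 120887613) and Oas1a (120896256 to 120907521), of which Oas1b alone is on the plus strand.

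Oas1a and Oas1g are close copies, which bears on how their reads could be counted. Their longest protein-coding transcripts were 97.5% identical over 1860 aligned bases, and their promoter windows 88.8% identical over 294 bases. Of the stretches of 100 bases in the transcript, 40.9% of those of Oas1a and 38.2% of those of Oas1g also occur in the other gene. Oas1c shared 4.47%, with the overlapping antisense gene Gm43069, which had 4 counts in all 6 libraries together. The other 5 genes shared none at that length. More was shared with other genes at 50 bases, 57.6% for Oas1a, 54.7% for Oas1g and 16.3% for Oas1c. Oas1b shared 3.42% and Oas3 0.792% at that length, and Oas2, Oasl1 and Oasl2 shared none. Reads from shared stretches may be lost or split, and the length of the reads is not known. The levels of Oas1a and Oas1g, and to a lesser degree that of Oas1c, are therefore uncertain. Without a stated strand setting, reads of Oasl1 and its antisense partner Gm13822 (32 counts in all) cannot be told apart either.

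Oas1a, Oas1b, Oas1g, Oas2 and Oas3 were lower in every ATM KO tumor than in any vector control tumor. Of these, Oas1a, Oas1g, Oas2 and Oas3 encode active synthetases, and Oas1b is annotated as a pseudogene. Oasl2, an active synthetase in the mouse, overlapped between the groups, as did Oas1c and Oasl1. A link with enzyme activity was not tested. Oas2, whose protein carries its synthetase unit in tandem, had 79.0, 79.2 and 117 CPM in ATM KO tumors 1, 2 and 3, against 224, 174 and 166 CPM in vector control tumors 1, 2 and 3. ATM KO tumor 3 was nearest to the vector control tumors, and vector control tumor 1 was the farthest from the ATM KO tumors. The means were 91.6 ± 21.8 CPM in ATM KO and 188 ± 31.3 CPM in vector control tumors (SD, n = 3 each), a log2 fold change of -1.04 ± 0.20 (SE).

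Oas1g, an active short synthetase, had 13.0, 13.2 and 15.4 CPM in ATM KO tumors and 28.7, 23.9 and 27.7 CPM in vector control tumors. Both groups were tight, and the gap between them was wider than either spread. The log2 fold change was -0.95 ± 0.12, with means of 13.8 ± 1.33 CPM in ATM KO and 26.8 ± 2.51 CPM in vector control tumors. Oas1a, its near copy, had 39.6, 37.2 and 47.9 CPM in ATM KO tumors and 63.5, 60.4 and 59.1 CPM in vector control tumors. The vector control tumors lay close together, and ATM KO tumor 3 again lay highest in its group. The means were 41.6 ± 5.64 CPM in ATM KO and 61.0 ± 2.26 CPM in vector control tumors, a log2 fold change of -0.55 ± 0.11.

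Oas3, whose human counterpart binds long double-stranded RNA with high affinity, had 60.9, 60.1 and 98.4 CPM in ATM KO tumors and 128, 117 and 103 CPM in vector control tumors. The groups did not overlap, but ATM KO tumor 3 and vector control tumor 3 were almost level. The means were 73.2 ± 21.9 CPM in ATM KO and 116 ± 12.6 CPM in vector control tumors, a log2 fold change of -0.66 ± 0.21. Without ATM KO tumor 3 it was -0.93.

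Oas1b, annotated as a polymorphic pseudogene, had 13.1, 12.9 and 14.0 CPM in ATM KO tumors and 29.9, 17.5 and 20.4 CPM in vector control tumors. The ATM KO tumors were nearly equal, and vector control tumor 1 stood well above the other 2 of its group. The means were 13.3 ± 0.592 CPM in ATM KO and 22.6 ± 6.52 CPM in vector control tumors, a log2 fold change of -0.76 ± 0.20. Oas1c, the divergent neighbour of Oas1b and in the mouse a protein without synthetase activity, had 7.38, 6.05 and 8.18 CPM in ATM KO tumors and 9.996, 5.58 and 6.04 CPM in vector control tumors. The groups overlapped, with means of 7.20 ± 1.08 CPM in ATM KO and 7.21 ± 2.43 CPM in vector control tumors and a log2 fold change of -0.00051 ± 0.26. Its sign depended on the setting, and without vector control tumor 1 the log2 fold change was 0.31.

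Both Oasl genes overlapped between the groups. Oasl2, an active synthetase in the mouse, had 187, 175 and 222 CPM in ATM KO tumors and 284, 219 and 248 CPM in vector control tumors. ATM KO tumor 3 and vector control tumor 2 overlapped by a narrow margin. The means were 195 ± 24.4 CPM in ATM KO and 250.5 ± 32.8 CPM in vector control tumors, a log2 fold change of -0.36 ± 0.13. Oasl1 had 28.0, 23.9 and 44.4 CPM in ATM KO tumors and 36.4, 34.7 and 45.0 CPM in vector control tumors. ATM KO tumor 3 lay above vector control tumors 1 and 2, and the log2 fold change was -0.27 ± 0.25. It was -0.57 without ATM KO tumor 3, -0.10 without ATM KO tumor 2 and -0.14 without vector control tumor 3.

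**Figure D1:**
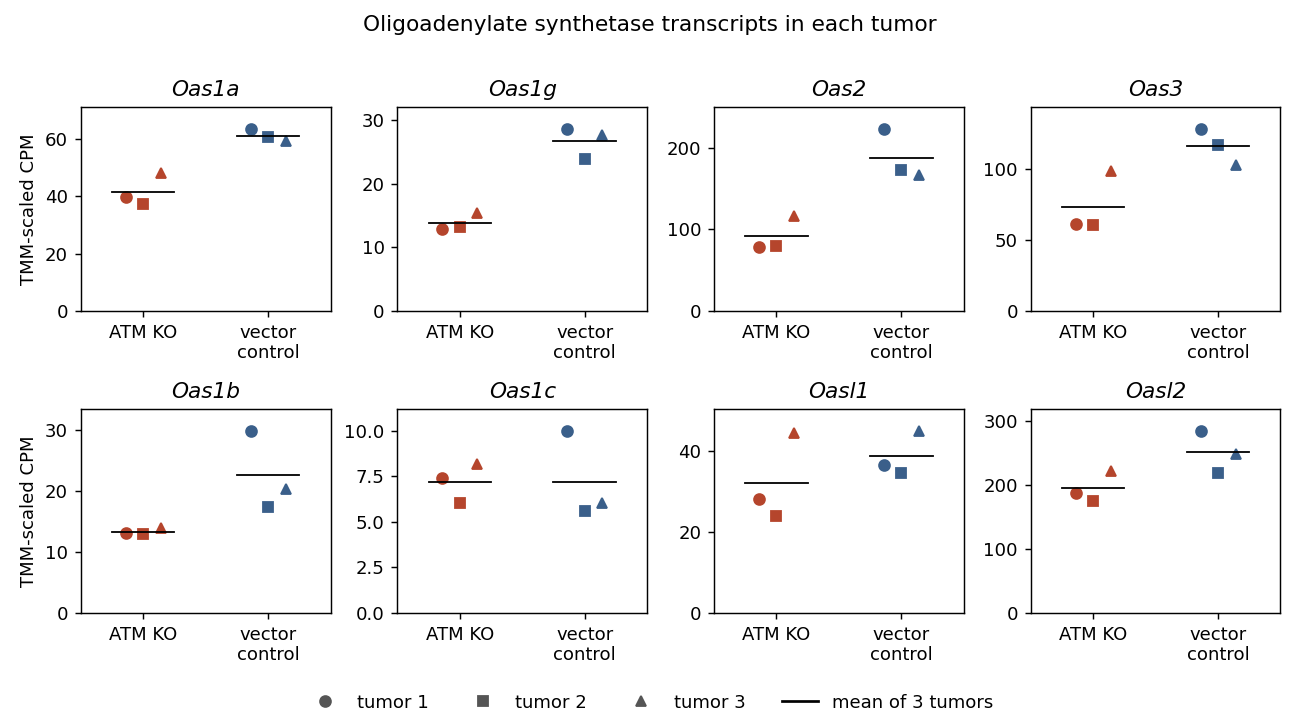
TMM-scaled CPM of the 8 genes in each tumor, 1 panel per gene, ATM KO tumors on the left and vector control tumors on the right of each panel, with symbols for tumors 1 to 3 and a line at the mean of 3. Oas1a, Oas1b, Oas1g, Oas2 and Oas3 show no overlap between the groups, while Oas1c has means of 7.20 CPM in ATM KO and 7.21 CPM in vector control tumors.

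All 8 log2 fold changes were negative, with a median of -0.61, against a median of -0.0058 over all genes tested, of which 50.9% were negative. All 8 genes lie on chromosome 5, where 66.6% of the tested genes were negative. The edgeR test at an adjusted p under 0.05 called 3 of 8 lower, Oas1a, Oas1g and Oas2, and 0 of 8 higher. Over all genes tested it called 2.75% lower and 2.21% higher. DESeq2 also called Oas1b and Oas3, 5 of 8 lower against 7.33% of all genes, and limma-voom called the same 3 as edgeR against 2.41% of all genes. With no filter on low counts edgeR called Oas1b in place of Oas2, so the call of Oas2 depends on the filter. Groups did not overlap, with ATM KO lower, in 5 of 8 genes and in 15.4% of all genes tested. Since the family was picked for this contrast, nothing is read from these shares. A fold change as low as that of Oas2 occurred in 2.27% of all genes tested, as low as that of Oas3 in 5.54% and as low as that of Oas1c in 50.8%. The edgeR count fell to 0 of 8 without ATM KO tumor 1, ATM KO tumor 2, vector control tumor 2 or vector control tumor 3, where 2 to 55 genes in all were called lower.

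ATM KO tumor 3 was the highest of its group in 8 of 8 genes and in 37.1% of all genes tested. Vector control tumor 1 was the highest of its group in 7 of 8, the exception being Oasl1, and in 42.1% of all genes tested. The summed level of the 8 genes was 428, 407 and 567 CPM in ATM KO tumors 1, 2 and 3 and 805, 651 and 676 CPM in vector control tumors 1, 2 and 3. ATM KO tumors 1 and 2 lay below every vector control tumor in 7 of 8 genes each, and ATM KO tumor 3 in 5 of 8. Over all genes tested these shares were 30.4% for ATM KO tumor 1, 28.6% for ATM KO tumor 2 and 28.1% for ATM KO tumor 3. In bulk tumors, fewer cells that make a transcript and less of it per cell cannot be told apart.

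Levels of different genes were compared per kilobase of annotated exon. In ATM KO tumors Oasl2 was highest at 30.5 ± 3.83 CPM per kb, followed by Oas1a at 22.1 ± 2.99, Oas2 at 20.6 ± 4.89, Oasl1 at 12.3 ± 4.16, Oas3 at 10.4 ± 3.10, Oas1b at 6.69 ± 0.297, Oas1g at 5.91 ± 0.569 and Oas1c at 2.99 ± 0.447 CPM per kb. In vector control tumors Oas2 was highest at 42.2 ± 7.03 CPM per kb, followed by Oasl2 at 39.3 ± 5.14, Oas1a at 32.4 ± 1.20, Oas3 at 16.4 ± 1.79, Oasl1 at 14.8 ± 2.12, Oas1g at 11.4 ± 1.07, Oas1b at 11.3 ± 3.27 and Oas1c at 3.00 ± 1.01 CPM per kb. Oas1a and Oas2 in ATM KO tumors, Oas2 and Oasl2 as well as Oas1g and Oas1b in vector control tumors, and Oas3 and Oasl1 in both groups differed by less than their SDs. The order depends on the length used. Per kilobase of the longest protein-coding transcript, Oasl2 led in both groups, at 62.3 CPM per kb in ATM KO and 80.2 CPM per kb in vector control tumors.

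Ratios of read counts within a tumor do not depend on its depth, and they differed between the groups for some of the pairs read. The pairs were chosen and their ratios restate the levels given above, so they carry no test. The share of other gene pairs without overlap between the groups was not computed. Oas2 over Oasl2 was 0.423, 0.453 and 0.526 in ATM KO tumors and 0.787, 0.793 and 0.669 in vector control tumors. Oas2 over Oas3, neighbours in the cluster, was 1.296, 1.32 and 1.19 in ATM KO tumors and 1.75, 1.49 and 1.61 in vector control tumors. In both ratios every ATM KO tumor lay below every vector control tumor, so Oas2 differed by more than its companion.

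The close copies Oas1g and Oas1a had a ratio of 0.327, 0.354 and 0.320 in ATM KO tumors and 0.451, 0.396 and 0.468 in vector control tumors. The divergent pair Oas1b and Oas1c had a ratio of 1.77, 2.13 and 1.71 in ATM KO tumors and 3.00, 3.13 and 3.38 in vector control tumors. Neither ratio overlapped between the groups. Oasl2 over Oasl1 did overlap, with 6.66, 7.33 and 4.999 in ATM KO tumors and 7.80, 6.31 and 5.52 in vector control tumors. As a share of the counts of the family, Oas2 held 18.5%, 19.4% and 20.6% in ATM KO tumors and 27.8%, 26.7% and 24.6% in vector control tumors. Oasl2 held 43.7%, 42.9% and 39.1% in ATM KO tumors and 35.3%, 33.6% and 36.8% in vector control tumors.

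**Figure D2:**
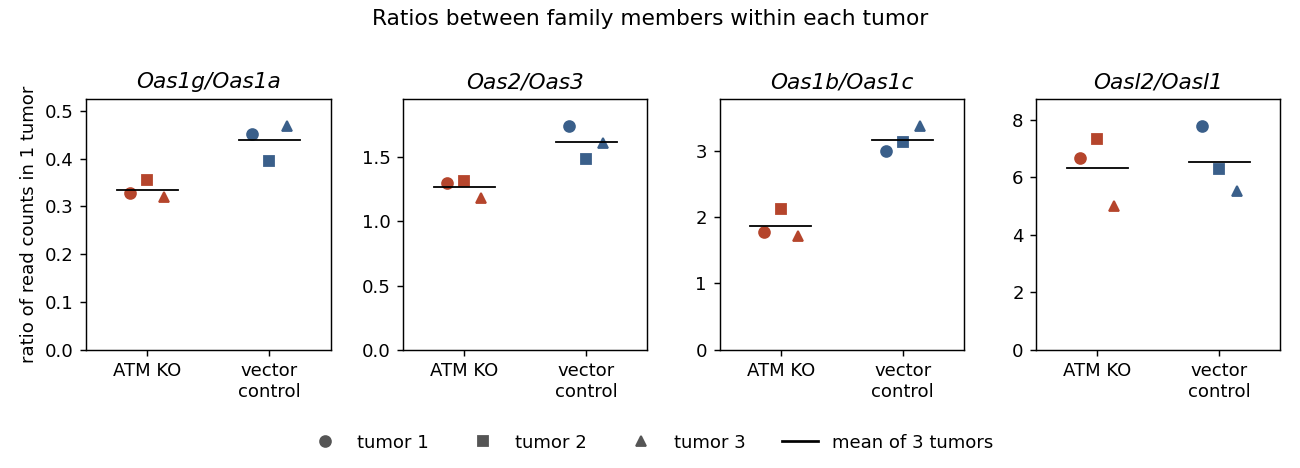
Ratios of read counts between family members within each tumor, ATM KO tumors on the left and vector control tumors on the right of each panel. Oas1g over Oas1a lies between 0.320 and 0.354 in ATM KO tumors and between 0.396 and 0.468 in vector control tumors.

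After each gene was centred on its mean log2 CPM, the closest profiles over the 6 tumors were those of Oas1a and Oasl2, with a root mean square difference of 0.134. Oas1g and Oas2 followed at 0.165 after Oas1a and Oas3 at 0.158, and Oas1c and Oas2 were farthest apart at 0.573. The close copies Oas1a and Oas1g differed by 0.212. Among 11899 other protein-coding genes of at least 2 CPM, the profile nearest to the mean of the family was that of Phf11d, an interferon-stimulated gene (0.0404), followed by Zdhhc20 (0.0459), Pdk3 (0.0497), Ly96 (0.0589), Nufip1 (0.0664) and Rtp4 (0.0740), all as log2 differences. For single genes the nearest profile was Ifi44 for Oas2 (0.0776), Cmpk2 for Oasl2 (0.0531), Khnyn for Oas1a (0.0426), Ccdc122 for Oas1g (0.0952), Cox7b for Oas1b (0.0722), Fzd7 for Oas3 (0.0883), Slc16a3 for Oasl1 (0.105) and Asah2 for Oas1c (0.0556). Phf11d, Zdhhc20, Nufip1, Khnyn and Ccdc122 lie on chromosome 14, where the median log2 fold change of 533 tested genes was -0.35 and 21.4% were called lower. On chromosome 5, which holds the family, the median of 1008 tested genes was -0.09 and 66.6% had a negative log2 fold change. Of these genes 2.38% were called lower and 4 genes were called higher.

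The other Oas1 genes of the cluster had almost no counts. Oas1d had 3, 2 and 0 counts in ATM KO tumors and 4, 4 and 5 counts in vector control tumors. Oas1f had 1, 0 and 0 counts in ATM KO tumors and the same in vector control tumors, Oas1h had 1 count in vector control tumor 2 alone, and Oas1e had 0 in every library. A count of 0 allows up to 0.103 to 0.137 CPM, the level of 3 counts, by counting error only. Each of these genes shares stretches of 50 bases with Oas1c, and a loss of reads from such stretches was not tested. None of these 4 genes was tested.

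Among the genes fixed for the response to the chains and their removal, Pde12 alone passed the test, 1 of 4. Of all genes tested 2.75% were called lower. Pde12, a nuclease that degrades them, fell to 31.0, 30.4 and 33.1 CPM in ATM KO tumors, against 46.8, 43.5 and 38.8 CPM in vector control tumors (log2 fold change -0.45 ± 0.09, edgeR adjusted p = 0.0462). Its adjusted p was 0.0539 in limma-voom and 0.0579 without vector control tumor 1. Abce1, an ATP-binding protein of ribosome recycling, averaged 226 ± 6.77 CPM in ATM KO and 270 ± 21.0 CPM in vector control tumors (edgeR adjusted p = 0.117), and Akap7, whose protein has a phosphodiesterase fold that cuts the chains in the mouse, averaged 43.0 ± 2.21 CPM in ATM KO and 47.6 ± 4.50 CPM in vector control tumors (edgeR adjusted p = 0.400).

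Of 12 genes for sensors and binders of double-stranded RNA, 1 fell and 0 rose, against 2.75% lower and 2.21% higher of all genes tested. Tlr3, an endosomal receptor for this RNA, fell to 75.5 ± 4.62 CPM in ATM KO tumors, against 125 ± 22.2 CPM in vector control tumors (log2 fold change -0.72 ± 0.13, edgeR adjusted p = 0.0396). Eif2ak2, which encodes the kinase PKR, averaged 155 ± 7.57 CPM in ATM KO and 183 ± 6.33 CPM in vector control tumors (edgeR adjusted p = 0.0995). Mavs, the adaptor of the cytosolic RNA sensors, had the other sign, with 48.7 ± 1.84 CPM in ATM KO and 39.7 ± 1.10 CPM in vector control tumors (edgeR adjusted p = 0.0572). Stau1, which encodes a protein that binds double-stranded RNA, also had the other sign, with 111.0 ± 6.06 CPM in ATM KO and 93.6 ± 3.42 CPM in vector control tumors (edgeR adjusted p = 0.0988). The median of the list was -0.07.

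Of 13 genes for the interferon receptor, its kinases and ISGF3, 1 fell and 0 rose, against 2.75% lower and 2.21% higher of all genes tested. Irf9, the DNA-binding subunit of ISGF3, fell to 65.5 ± 3.99 CPM in ATM KO tumors, against 97.2 ± 6.74 CPM in vector control tumors (log2 fold change -0.57 ± 0.08, edgeR adjusted p = 0.0237). The receptor genes Ifnar2 (-0.39, edgeR adjusted p = 0.0572) and Ifnar1 (-0.24, edgeR adjusted p = 0.0925) did not pass, nor did Irf2 (-0.24, edgeR adjusted p = 0.248). Irf7, whose translation OASL1 restrains, had 107, 101 and 167 CPM in ATM KO tumors and 119, 122 and 120 CPM in vector control tumors (chosen after its values were seen). ATM KO tumor 3, the highest of its group across the Oas genes, stood apart for Irf7 as well, and the log2 fold change was 0.05 (edgeR adjusted p = 0.914). The median of the list was -0.24.

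Interferon transcripts themselves were barely read. Of 20 interferon genes, 17 were at 0 in all 6 libraries. Interferon beta (Ifnb1) had 0, 0 and 1 counts in ATM KO tumors and 2, 3 and 1 counts in vector control tumors, and Ifnab had 2 counts in ATM KO tumor 2 alone. Ifng, the gene of interferon gamma, was the only one with enough counts to test, at 2.13 ± 0.933 CPM in ATM KO and 1.28 ± 0.591 CPM in vector control tumors (log2 fold change 0.73 ± 0.45, edgeR adjusted p = 0.407).

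Of 30 interferon-stimulated genes outside the family, 1 fell and 0 rose, while 26 had a negative log2 fold change and the median was -0.24. Over all genes tested 50.9% were negative. The edgeR test at an unadjusted p under 0.05 found 10 lower and 1 higher, against 12.3% lower and 10.6% higher of all genes tested. The 1 of 30 called is near the 2.75% of all genes called lower. Ifi44, an interferon-induced antiviral gene and the nearest profile to Oas2, fell to 38.1 ± 7.40 CPM in ATM KO tumors, against 80.4 ± 16.9 CPM in vector control tumors (log2 fold change -1.08 ± 0.19, edgeR adjusted p = 0.0396, and 0.0551 with no filter). Rtp4 (-0.48, edgeR adjusted p = 0.0829) and Tor3a (-0.35, edgeR adjusted p = 0.1002) did not pass. Ube2l6, the conjugating enzyme of ISG15, had the other sign, with 114 ± 12.7 CPM in ATM KO and 78.2 ± 8.48 CPM in vector control tumors (edgeR adjusted p = 0.0510). Apol9a and Apol9b, the other genes with the shared 16 bases, named after their values were seen, did not pass. Apol9a averaged 74.6 ± 6.05 CPM in ATM KO and 84.8 ± 20.5 CPM in vector control tumors (log2 fold change -0.18 ± 0.17, edgeR adjusted p = 0.598), and Apol9b averaged 70.6 ± 8.91 CPM in ATM KO and 74.6 ± 6.93 CPM in vector control tumors (-0.08 ± 0.12, edgeR adjusted p = 0.756).

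**Figure D3:**
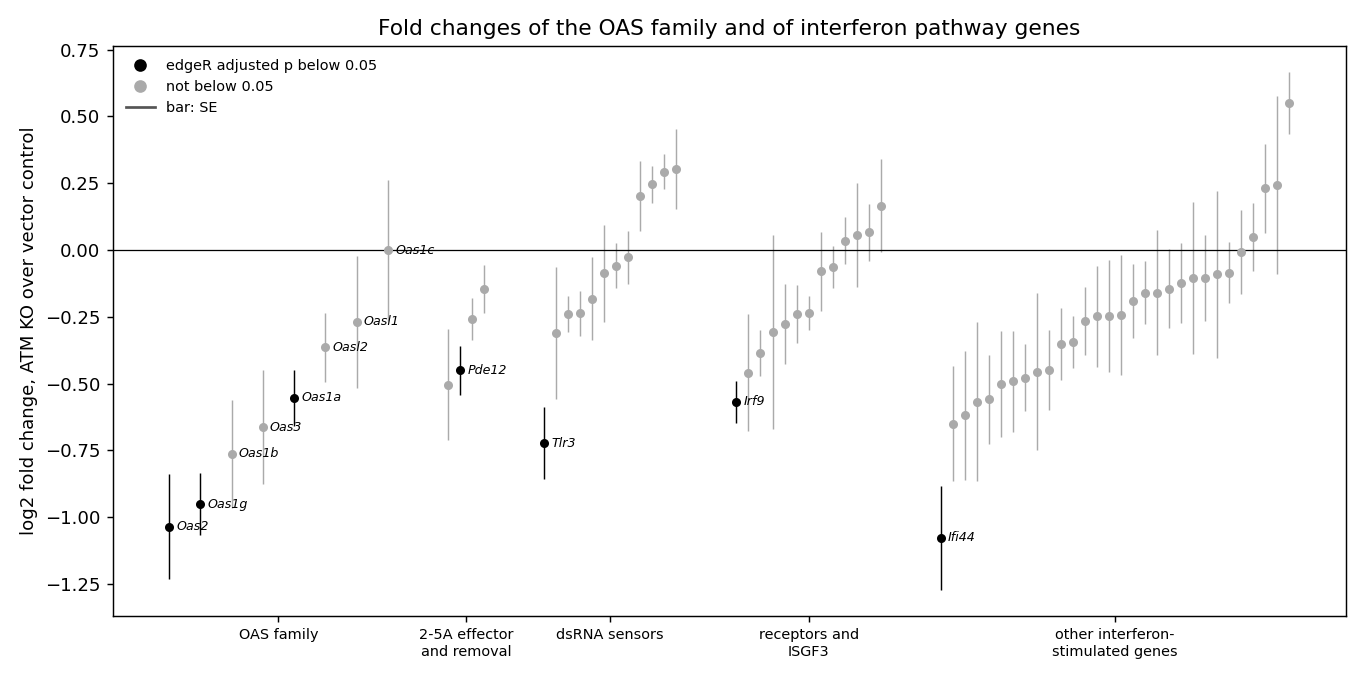
Log2 fold changes of ATM KO over vector control, 1 point per gene, for the 8 family members and the lists of pathway genes, with bars of 1 SE and black points for an edgeR adjusted p below 0.05. Oas2 (-1.04) and Ifi44 (-1.08) lie lowest, and Oas1c lies at 0.

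Genes beside the family were also read. Of the 10 tested genes nearest to the Oas cluster, 5 on each side, 1 fell and 8 had a negative log2 fold change, with a median of -0.18. Over all genes tested 2.75% were called lower and 50.9% were negative, and on chromosome 5 these shares were 2.38% and 66.6%. Naa25, a subunit of an acetyltransferase that acts on protein N termini, fell to 94.3 ± 0.797 CPM in ATM KO tumors, against 120 ± 6.94 CPM in vector control tumors (log2 fold change -0.35 ± 0.07, edgeR adjusted p = 0.0424, and 0.0516 with no filter). Rpl6 (-0.39, edgeR adjusted p = 0.0627) and Ddx54 (-0.30, edgeR adjusted p = 0.0616) did not pass. Nor did Rasal1 (-0.50), Ptpn11 (-0.18), Trafd1 (-0.18), Rita1 (-0.17), Hectd4 (-0.11), Tpcn1 (0.03) and Iqcd (0.71). Around the Oasl pair 0 of 10 genes passed in edgeR. At an unadjusted p under 0.05 in edgeR 1 was lower, against 12.3% of all genes tested. Over both sites DESeq2 called 4 lower, Ddx54, Rpl6 and Naa25 by the cluster and Sppl3 by the pair, against 7.33% of all genes. The Oasl flanks Acads, Unc119b, Git2, Gltp, Ankrd13a, Rpl37rt, 1500011B03Rik, 2210016L21Rik, Sppl3 and Tchp lay between -0.22 (Sppl3, edgeR adjusted p = 0.0877) and 0.14 (Tchp), with a median of -0.03. The part of the flanking difference in the values of the Oas genes was not tested.

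**Figure D4:**
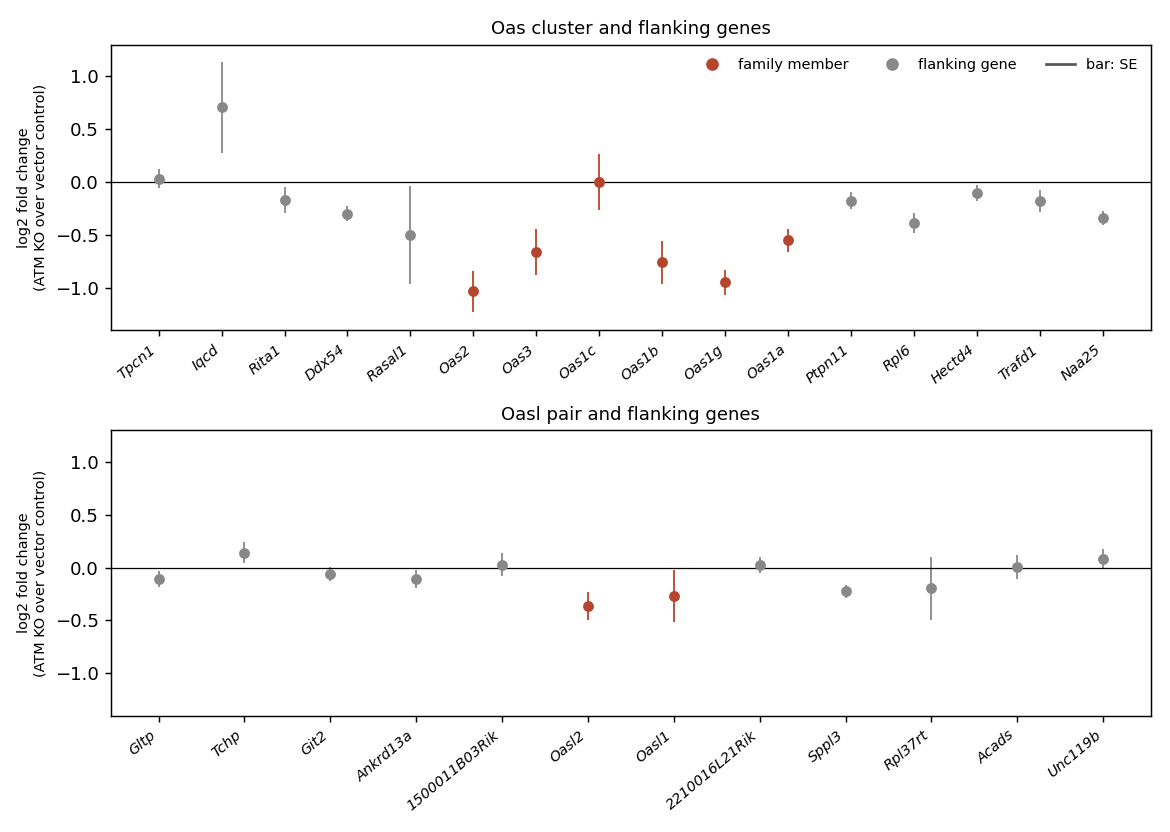
Log2 fold changes of ATM KO over vector control, in gene order, for the Oas cluster and the Oasl pair with the 5 tested genes on each side of each. Oas2 reaches -1.04 in the cluster, where the flanking genes have a median of -0.18.

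All called genes of these lists, Pde12, Tlr3, Irf9, Ifi44 and Naa25, lost their call without ATM KO tumor 1, ATM KO tumor 2, vector control tumor 2 or vector control tumor 3. Without ATM KO tumor 3, Irf9 alone of them passed. Irf9 and Pde12, like the melanoma marker Dct, lie on chromosome 14, and the part of that chromosome's lower median in their values was not tested.

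Markers of cells that could carry these transcripts varied between tumors. The 5 leukocyte markers summed to 356 to 451 CPM in ATM KO tumors and 215 to 529 CPM in vector control tumors, and the 6 macrophage markers to 654 to 853 CPM in ATM KO tumors and 332 to 1008 CPM in vector control tumors. Both sums were lowest in vector control tumor 1, where 7 of the 8 Oas genes were highest. That tumor also had the highest melanoma marker sum, 28160 CPM, and the lowest dendritic cell, T cell, neutrophil, fibroblast and skeletal muscle sums of the 6. The 5 T cell markers summed to 32.1 to 68.7 CPM in ATM KO tumors and 22.5 to 32.1 CPM in vector control tumors. Among them Cd3d, Cd3e and Cd8a were higher in every ATM KO tumor than in any vector control tumor. Their log2 fold changes were 0.98, 0.92 and 1.01, and Cd4 and Trac overlapped. Of 15696 genes tested, 2252 were likewise higher without overlap. The 5 dendritic cell markers summed to 9.77 to 14.6 CPM in ATM KO tumors and 4.02 to 23.3 CPM in vector control tumors. The 3 endothelial markers summed to 107 to 129 CPM in ATM KO tumors and 136 to 226 CPM in vector control tumors, without overlap, as did the 3 B cell markers at 0.410 to 0.680 CPM in ATM KO tumors and 0.708 to 13.0 CPM in vector control tumors. The 3 neutrophil markers summed to 10.95 to 14.1 CPM in ATM KO tumors and 9.20 to 22.1 CPM in vector control tumors, and the 3 fibroblast markers to 625 to 912 CPM in ATM KO tumors and 204 to 1546 CPM in vector control tumors. The 3 skeletal muscle markers ranged most widely, from 363 to 4705 CPM in ATM KO tumors and from 11.4 to 5283 CPM in vector control tumors. No marker was at 0 in all libraries, and none of these cell types had a called marker. Their part in the values of the Oas genes was not tested.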

How the data were processed

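RNA of 6 tumors was sequenced. Raw read counts per gene, 1 library per file, were deposited by the authors. Per the submitters' processing notes, which give no version or order, the tools were STAR, HTSeq, SAMtools, cutadapt and Trim Galore and the builds mm10 and GRCm38. Strand setting and read length are not given in the sources used here. Rows without a gene were not used: reads outside genes were 16.7% to 18.2% and ambiguous reads 1.21% to 1.38% of each library's total. Libraries of a group differed by more than sampling noise (21.2 to 79.9 as chi-square over degrees of freedom).

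Genes were filtered with filterByExpr (minimum count 10, minimum total 15), scaled by TMM (factors 0.958 to 1.03) and tested with the quasi-likelihood test of edgeR 4.0.16 in R 4.3.3, robust, with genotype as the only term. Adjusted p-values are Benjamini-Hochberg over 15696 genes, with a threshold of 0.05. The biological coefficient of variation was 27.6%, and SE is the fold change over the root of F. DESeq2 1.42.0, limma 3.58.1 voom, other scalings, filters and thresholds, a replicate block and leaving out each library were the alternatives. Coordinates and lengths come from GENCODE M21 (GRCm38), promoters from RefSeq. Motifs were searched on both strands. Profile likeness used log2 CPM with a prior count of 2.

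The members and the gene lists were chosen with earlier results of these data known. Named were the members, the called genes and up to 4 genes of smallest p in each list, all flanking genes and the nearest profiles; the text prints examples, and some genes of these lists are not reported here.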

Additional observations from a re-analysis of the deposited data

How the results depend on the processing

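The number of the 8 genes called was 5 with DESeq2, and 0 to 4 when 1 library was left out. At a threshold of 0.10 it was 4, and at 0.01 it was 0. How many of all genes tested pass at those thresholds was not counted. The median log2 fold change of the 8 genes stayed negative under every alternative run, between -0.73 and -0.51. The log2 fold change of Oas1c took the other sign with library size only (0.055), no filter (0.016), at least 1 CPM in 3 libraries (0.032) and limma-voom (0.039), and lay between -0.12 and 0.31 when 1 library was left out. DESeq2 called 2 genes of the 2-5A list, 4 double-stranded RNA genes (2 of them higher), 3 receptor and ISGF3 genes, 7 interferon-stimulated genes (1 higher) and 4 flanking genes, and 1150 lower and 920 higher in all. limma-voom called 0 of the 2-5A list. Library size only gave 3 double-stranded RNA genes (2 higher) and 2 interferon-stimulated genes (1 higher), the filter at 1 CPM gave 2 and 2 (1 higher in each), and no filter gave 2 interferon-stimulated genes (1 higher) and 0 flanking genes. The calls not marked as higher were lower in ATM KO tumors. With 1 library left out, the counts ran from 0 to 1 for the 2-5A, double-stranded RNA and ISGF3 lists and from 0 to 2 for interferon-stimulated and flanking genes. Fits without 1 library have fewer samples. For the other alternatives the cause was not tested.

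The labels do not say that replicate numbers pair tumors, and same-numbered tumors did not deviate together (correlations 0.04, -0.27 and -0.42 over 15696 genes). With the replicate number as a block, edgeR called 0 genes in all, so 0 members and 0 genes of every list, and Oas1c was at 0.038.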
